A study of Mus musculus with 43 samples.

Results

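The AP-1 family was read out here as 10 genes, taken by symbol from the rows of the mouse read-count table: *Fos*, *Fosb*, *Fosl1*, *Fosl2*, *Jun*, *Junb*, *Jund*, *Atf3*, *Ier2* and *Maff*. All 10 were found among the 54532 genes of the table, and all 10 passed the filter on low counts in each comparison. The 43 libraries were bulk RNA-seq of retina from C57BL/6J mice of 9 weeks with a laser-induced choroidal neovascularization (CNV) lesion. Retinas were collected 3, 7 or 14 days post-laser (dpl) from male and female mice that were lasered only (control, 19 libraries) or that also drank sodium salts of short-chain fatty acids (SCFA, 24 libraries) from before the lesion until they were killed. The SCFA water held acetate at 67.5 mM with propionate and butyrate, whose labelled masses per litre were at odds with their labelled molar concentrations, so these doses are uncertain. Every library was a pool of 2 retinas from 2 animals of a group, every animal was lasered, and there was no library without a lesion. The p-values measure the spread between these pools.

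The groups, by treatment, were 4 control and 3 SCFA libraries in males at 3 dpl, 3 and 5 at 7 dpl and 3 and 3 at 14 dpl, and 3 and 5 in females at 3 dpl, 3 and 4 at 7 dpl and 3 and 4 at 14 dpl. SCFA was tested against control on the libraries of the study's own comparisons at 7 and 14 dpl and on all libraries at 3 dpl, and controls of different days were compared on all control libraries. Library totals ran from 14826957 to 21507527 counts. The count table lists 31 libraries in a first run of columns and 12 in a second run, and the members were therefore also compared within the first run and in a fit of all 43 libraries with the run of columns as a covariate. Of 22 libraries labelled female, 1 held Y-linked transcripts (female control 7 dpl replicate 2), and the study's comparisons do not include it. In female SCFA 3 dpl replicate 2, lens markers summed to 150356 CPM (counts scaled to library size), and male SCFA 7 dpl replicates 1 and 3, also outside the study's comparisons, had 15.3% and 16.6% of counts on the mitochondrial chromosome.

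AP-1 is a dimeric transcription factor made of basic leucine zipper proteins. Jun proteins pair with themselves or with Fos proteins, and the dimers bind the AP-1 site or the related cyclic AMP response element (CRE). *Fos*, *Fosb*, *Jun*, *Junb*, *Atf3*, *Ier2* and *Maff* are immediate early genes. Their transcription starts within minutes of growth factor, calcium or stress signalling through MAP kinases, and their mRNAs decay fast. *Jund* is made steadily in most tissues, Fosl1 and Fosl2 are Fos proteins that lack the strong activation domain of Fos, Maff is a small Maf protein without an activation domain, and Ier2 has no leucine zipper but is induced together with *Fos*. In the retina, AP-1 genes respond to light, injury and glial activation.

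The 250 bases before the RefSeq start (GRCm38.p6, the same build as the files' mm10) are shown for the 4 members with a single start in the RefSeq table, a CRE core (TGACG on either strand) in this window and a called SCFA difference. Each is printed 5′ to 3′ along its gene with the CRE cores in capitals. *Fos* lies on the plus strand of chromosome 12 (window chr12:85473640-85473889), *Fosb* on the minus strand of chromosome 7 (chr7:19310046-19310295), *Junb* on the minus strand of chromosome 8 (chr8:84978749-84978998) and *Atf3* on the minus strand of chromosome 1 (chr1:191183334-191183583). The last 6 bases of the *Fosb* window and the last 7 of the *Atf3* window are exonic in GENCODE M21, and the other windows hold no exon. GENCODE M21 extends *Atf3* upstream to position 191218039, beyond the window shown.
Fos: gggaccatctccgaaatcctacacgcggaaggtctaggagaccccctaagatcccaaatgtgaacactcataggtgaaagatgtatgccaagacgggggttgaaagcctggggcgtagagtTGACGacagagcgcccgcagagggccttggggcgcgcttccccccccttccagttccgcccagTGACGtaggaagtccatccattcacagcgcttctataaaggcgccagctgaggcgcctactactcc
Fosb: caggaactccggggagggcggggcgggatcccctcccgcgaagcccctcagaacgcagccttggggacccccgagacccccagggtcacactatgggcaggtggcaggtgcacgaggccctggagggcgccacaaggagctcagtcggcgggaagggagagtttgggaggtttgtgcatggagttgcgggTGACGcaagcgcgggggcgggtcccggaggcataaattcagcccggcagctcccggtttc
Junb: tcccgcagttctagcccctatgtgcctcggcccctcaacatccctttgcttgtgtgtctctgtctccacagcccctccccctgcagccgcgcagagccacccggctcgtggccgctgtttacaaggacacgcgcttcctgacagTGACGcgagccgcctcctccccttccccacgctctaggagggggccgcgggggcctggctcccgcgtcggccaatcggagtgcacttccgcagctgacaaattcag
Atf3: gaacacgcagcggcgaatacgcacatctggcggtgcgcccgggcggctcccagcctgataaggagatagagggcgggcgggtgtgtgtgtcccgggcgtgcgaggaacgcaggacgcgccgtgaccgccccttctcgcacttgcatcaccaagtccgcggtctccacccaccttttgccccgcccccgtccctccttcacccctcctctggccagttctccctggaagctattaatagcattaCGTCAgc
The *Fos* window held CRE cores that began 129 and 66 bases before the start, and a TATAAA motif that began 33 bases before it. The CRE core began 60 bases before the start in *Fosb*, 106 in *Junb* and 7 in *Atf3*. RefSeq windows were at hand for 8 members, and 5 of these 8 genes had a CRE core in at least 1 window. By window, 6 of the 10 member windows held a CRE core, against 17.8% of all 32851 windows. The full CRE (TGACGTCA, which contains the CRE core on both strands) was found in 1 of the 10 member windows, that of 1 *Maff* start, against 1.55% of all windows. The AP-1 site TGAGTCA, on either strand, was in none of the 10 member windows and in 4.46% of all windows. Such matches are letters in a short window and were not measured as binding sites.

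Per kilobase of exon, *Jund* had the highest level of the family over the 43 libraries, 36.0 ± 7.26 CPM per kb (SD, n = 43). *Ier2* followed with 22.4 ± 6.02 CPM per kb, *Fos* with 17.8 ± 8.82, *Jun* with 14.5 ± 2.14, *Junb* with 12.2 ± 5.25 and *Atf3* with 7.40 ± 3.14. The lowest levels were those of *Fosl1* with 1.45 ± 0.545 CPM per kb, *Maff* with 1.33 ± 0.685, *Fosl2* with 1.06 ± 0.506 and *Fosb* with 0.770 ± 0.348. Only the steps from *Jund* to *Ier2* and from *Atf3* to *Fosl1* were larger than the SD of both neighbours, so the other neighbours in this order were not apart beyond their spread. The raw counts behind these levels ran from 15 to 142 per library for *Maff*, 23 to 106 for *Fosl1* and 542 to 1806 for *Jund*. Of the 10, 4 share exonic bases with a gene on the opposite strand in GENCODE M21: *Fosl1* shares 1163 bases with *Ccdc85b*, *Jund* 877 with *Gm11175*, *Jun* 232 with *Junos* and *Junb* 173 with *Prdx2*. The strand setting of the counting is not given in the sources used here, so reads of these pairs may be mixed.

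*Fos*, the founding member of the family, was lower in SCFA than in control retinas by the means of all 6 sex and time strata. Its control means ran from 38.1 ± 14.9 CPM (SD, n = 4) in males at 3 dpl to 68.9 ± 5.44 CPM (n = 3) in females at 3 dpl, and its SCFA means from 22.2 ± 5.19 CPM (n = 3) in males at 3 dpl to 33.4 ± 9.63 CPM (n = 5) in males at 7 dpl. Every control mean was thus above every SCFA mean, which held for *Fosb*, *Junb*, *Atf3* and *Maff* as well. These means take in all libraries of a group, also the control labelled female with Y-linked transcripts. Without it, the female controls at 7 dpl were at 16.6 and 10.3 CPM for *Atf3* and at 4.91 and 0.996 CPM for *Maff*. The means of these controls lay below the highest SCFA means, 13.9 CPM for *Atf3* and 3.53 CPM for *Maff* in males at 7 dpl. On the libraries compared in females at 14 dpl, *Atf3* had a log2 fold change of 0.26 (SE 0.297, adjusted p = 0.581). Single libraries crossed this line. In the first run of columns, *Fos* ran from 20.1 to 77.1 CPM (median 63.6) in 15 control libraries and from 20.8 to 48.4 CPM (median 31) in 16 SCFA libraries. Of these 15 control libraries, 14 lay above every SCFA library of the run, and the exception was female control 7 dpl replicate 3 at 20.1 CPM. In the second run, 4 control libraries ran from 21 to 101 CPM and 8 SCFA libraries from 16.6 to 31.1 CPM, and 1 control library lay above all SCFA libraries.

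**Figure D1:**
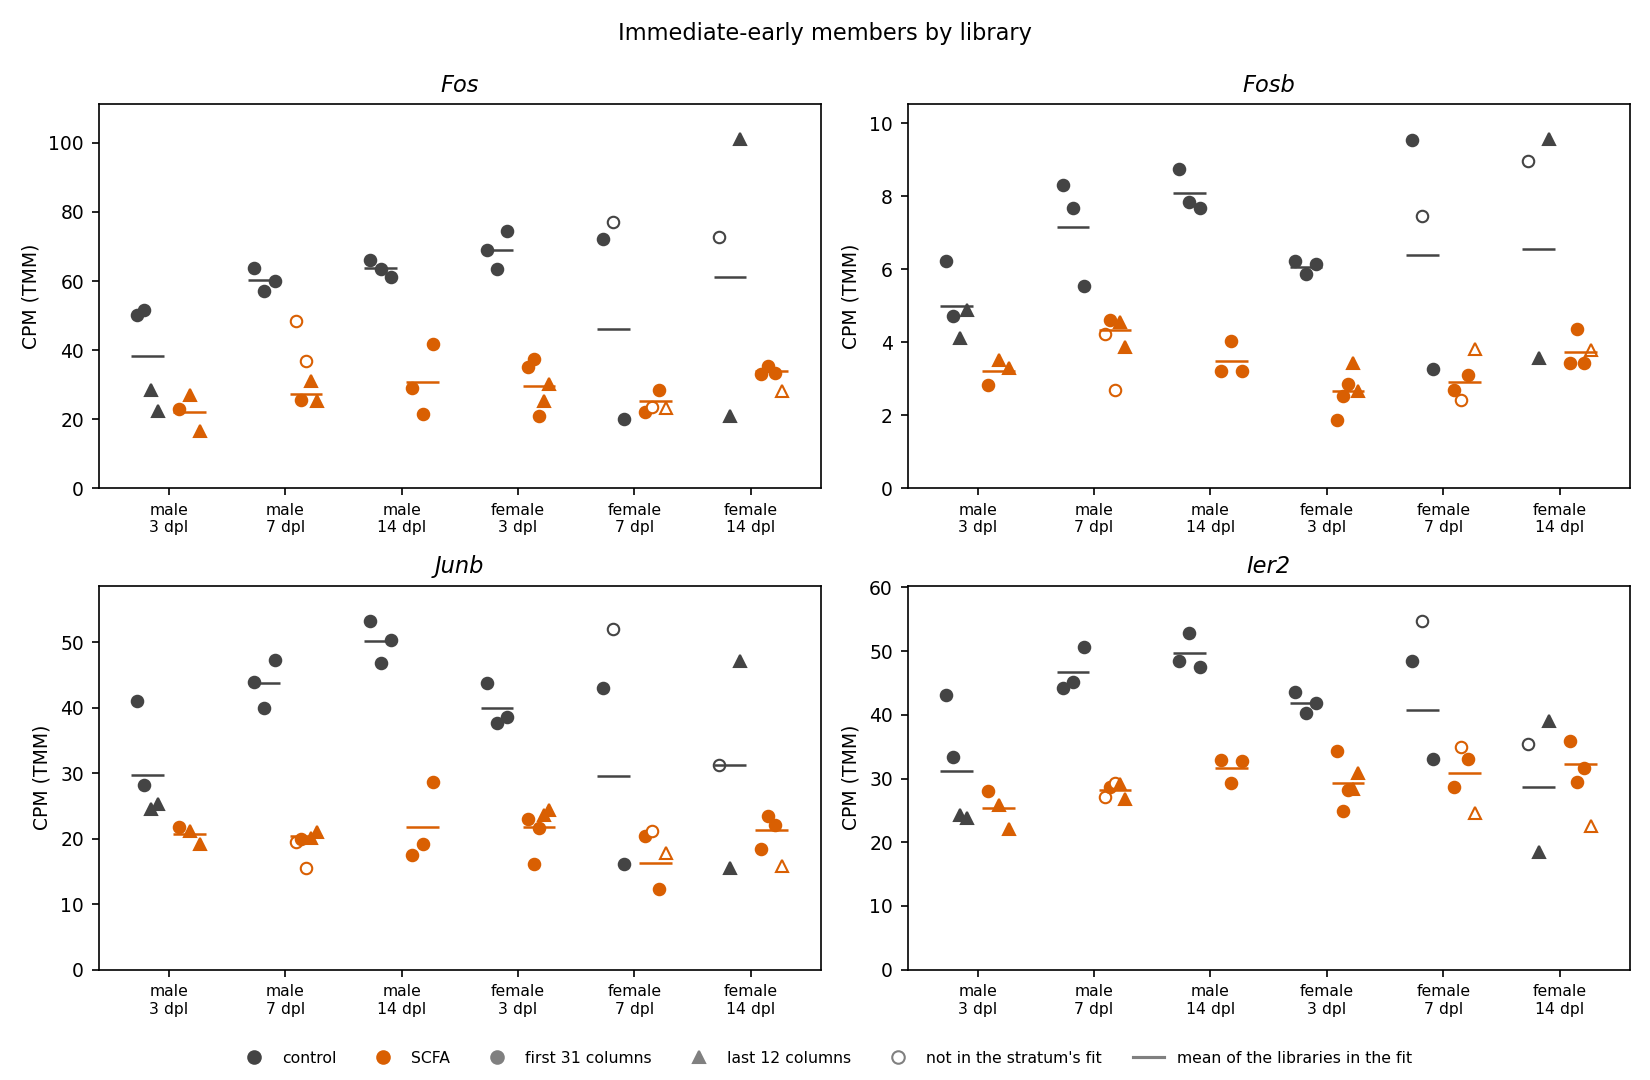
Expression of Fos, Fosb, Junb and Ier2 in CPM (vertical axes, from 0, TMM scale) in each of the 43 libraries by sex and time after the laser (horizontal axes). Grey is control and orange SCFA, circles are the first 31 columns and triangles the last 12, open symbols are libraries outside the stratum's comparison and lines are means of the libraries compared. For Fos, 1 female control library at 7 dpl and 1 at 14 dpl lie at 20.1 and 21 CPM and the others at 72.2 CPM or above.

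In males at 7 dpl, SCFA retinas had lower *Fos*, *Fosb*, *Junb*, *Jund* and *Ier2* than controls. *Fos* was at 63.7, 57.1 and 60.1 CPM in the 3 controls and at 25.5, 31.1 and 25.3 CPM in the 3 SCFA libraries compared, so the groups did not overlap. Its log2 fold change was -1.14 (SE 0.111, adjusted p = 0.00201, edgeR quasi-likelihood test with Benjamini-Hochberg adjustment over 16322 genes), a 0.455-fold level. *Junb*, a Jun protein that activates AP-1 sites less than Jun does, was at 43.9, 40.0 and 47.3 CPM in controls and at 19.9, 20.1 and 21.1 CPM under SCFA. Its log2 fold change was -1.10 (SE 0.104, adjusted p = 0.00201) and the groups again did not overlap.
*Ier2* was at 44.3, 45.2 and 50.7 CPM in controls and at 28.7, 29.1 and 26.8 CPM under SCFA, a log2 fold change of -0.72 (SE 0.0998, adjusted p = 0.0130). *Fosb* (log2 fold change -0.71, SE 0.206, adjusted p = 0.0520) and *Jund* (-0.42, SE 0.0933, adjusted p = 0.0264) were also called. Thus 5 of 10 members were called lower and none higher, against 8.47% of all genes called lower, and 6 of 10 had SCFA below control with no overlap, against 15.6% of all genes. Overlap was counted on the scaling of each comparison's own fit, which can differ slightly from the CPM printed here, scaled over all 43 libraries. The other 5 had log2 fold changes of -0.53 (*Maff*), -0.43 (*Atf3*), -0.22 (*Fosl2*), 0.18 (*Fosl1*) and 0.27 (*Jun*), none called. The member median was -0.48 and that of all genes -0.01.
All controls of this comparison are in the first run of columns, and of its SCFA libraries replicate 2 is in the first and replicates 4 and 5 are in the second. SCFA replicates 1 and 3, the libraries with the high mitochondrial share, had the highest *Fos* of the group, 48.4 and 36.7 CPM. Within the first run, which takes replicates 1 to 3 in both groups, *Fosb*, *Junb* and *Ier2* were called lower (log2 fold changes -0.89, -1.25 and -0.72), against 7.88% of all genes, while *Fos* at -0.71 (SE 0.302, adjusted p = 0.118) and *Jund* at -0.43 (adjusted p = 0.110) were not. With all 5 SCFA libraries and no covariate, the same 5 genes were called, with *Fos* at -0.84 (SE 0.199, adjusted p = 0.0582), against 3.08% of all genes.

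In males at 14 dpl, where every library is in the first run, 8 of the 10 members were lower in SCFA retinas. *Fos* was at 66.2, 63.6 and 61.3 CPM in controls and at 29.0, 21.6 and 41.8 CPM under SCFA, a log2 fold change of -1.04 (SE 0.178, adjusted p = 0.00790). *Atf3*, a stress-induced member of the family, had the lowest log2 fold change of the 10: it was at 29.3, 37.3 and 19.3 CPM in controls and at 10.4, 11.5 and 12.2 CPM under SCFA, which gave -1.32 (SE 0.198, adjusted p = 0.00670). The control values of *Atf3* were spread widely, and all 3 SCFA values lay below the lowest of them.
*Junb* was at 53.3, 46.8 and 50.4 CPM in controls and at 17.4, 19.2 and 28.7 CPM under SCFA (log2 fold change -1.19, SE 0.160, adjusted p = 0.00670). *Fosb*, which also encodes the long-lived variant known as delta-FosB, was at 8.75, 7.84 and 7.69 CPM in controls and at 3.22, 4.05 and 3.21 CPM under SCFA (-1.20, SE 0.188, adjusted p = 0.00675). *Maff* was at 7.09, 7.23 and 5.84 CPM in controls and at 2.13, 3.32 and 2.79 CPM under SCFA (-1.28, SE 0.222, adjusted p = 0.00806). In these 3 genes every SCFA library lay below every control library of the stratum.
*Fosl2* (log2 fold change -0.92, SE 0.190, adjusted p = 0.0137), *Ier2* (-0.64, SE 0.10, adjusted p = 0.00670) and *Jund* (-0.39, SE 0.125, adjusted p = 0.0538) were also called. *Jun* (-0.29, SE 0.121, adjusted p = 0.117) and *Fosl1* (-0.18, SE 0.256, adjusted p = 0.663) were not. Of all genes tested, 12.6% were called lower, and 19% had SCFA below control with no overlap, against 8 of 10 members. For *Jund*, the nearest control and SCFA values were 64.2 and 64.4 CPM on the scale of all 43 libraries, where they do overlap. The member median was -0.98 and that of all genes 0.00. By a rule that adds an absolute log2 fold change over 1, as the study's fold change threshold was read here, *Fos*, *Fosb*, *Junb*, *Atf3* and *Maff* counted at 14 dpl and *Fos* and *Junb* at 7 dpl, against 0.754% of all genes with such a decrease at 14 dpl and 0.999% at 7 dpl. In the fit of all 43 libraries with the run of columns, *Fos*, *Fosb*, *Junb*, *Atf3*, *Maff* and *Ier2* were called (6 members, against 3.86% of all genes).

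In females at 3 dpl, no member was called by edgeR in the comparison of all libraries, in which *Fos*, *Fosb* and *Junb* were apart between the groups. *Fos* was at 68.9, 63.5 and 74.4 CPM in controls and at 35.1, 37.5, 20.8, 25.1 and 30.1 CPM in the 5 SCFA libraries, a log2 fold change of -1.22 (SE 0.189, adjusted p = 0.187). *Fosb* was at 6.21, 5.88 and 6.14 CPM in controls and at 1.86, 2.54, 2.85, 3.44 and 2.67 CPM under SCFA (-1.19, SE 0.218, adjusted p = 0.412). *Junb* was at 43.7, 37.7 and 38.6 CPM in controls and between 16.2 and 24.4 CPM under SCFA (-0.89, SE 0.133, adjusted p = 0.184). In all 3 genes the groups were separate, as in *Ier2* and *Maff*, so that 5 of 10 members had SCFA below control without overlap, against 4.41% of all genes.
In this fit 5 members and 1951 of 16296 genes had an unadjusted p under 0.05, and 2 genes were called lower (0.0123%) and none higher. DESeq2 on the same libraries called *Fos*, *Fosb*, *Junb*, *Atf3* and *Ier2* lower, against 0.374% of all genes. Within the first run of columns (3 against 3), the same 5 members were called lower by edgeR, with *Fosb* at -1.35 (SE 0.286, adjusted p = 0.00647) and *Fos* at -1.16 (SE 0.306, adjusted p = 0.0185), against 8.71% of all genes. With the run of columns as a covariate, *Fos*, *Fosb* and *Junb* were called, against 3.33% of all genes. Without SCFA replicate 2, the library with the lens markers, *Fos* and *Junb* were called in the plain fit.

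In males at 3 dpl, no member was called by edgeR, and all 10 log2 fold changes were negative. *Maff* was at 5.84 and 4.91 CPM in the first-run controls, 2.72 and 2.61 CPM in the second-run controls and 1.36, 1.45 and 1.73 CPM under SCFA (log2 fold change -1.41, SE 0.349, adjusted p = 0.802). *Fosl2* was at 12.5, 9.87, 8.56 and 7.89 CPM in controls and at 3.81, 4.26 and 4.67 CPM under SCFA (-1.19, SE 0.206, adjusted p = 0.802). Both genes were separate between the groups, as were *Fosb* and *Junb*, 4 of 10 members against 4.05% of all genes.
*Fos* itself overlapped: controls were at 50.1 and 51.6 CPM in the first run and at 28.3 and 22.5 CPM in the second, and SCFA libraries at 23.0 CPM in the first and 26.9 and 16.6 CPM in the second. The log2 fold change of *Fos* was -0.78 (SE 0.314, adjusted p = 0.802) over both runs and -0.22 (SE 0.468, adjusted p = 0.808) within the second run. Of 16700 genes 0% were called in the plain fit (1027 had an unadjusted p under 0.05, 5 members among them), and DESeq2 called 19 lower and 14 higher, with *Fosl2* and *Maff* among the lower (0.114% of all genes). Within the second run 691 genes were called higher and 979 lower, and no member.

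In females at 7 and 14 dpl, the control libraries were far apart from each other. At 7 dpl, *Fos* was at 72.2 and 20.1 CPM in the 2 controls compared and at 22.1 and 28.4 CPM in the 2 SCFA libraries (log2 fold change -0.88, SE 0.436, adjusted p = 0.477). *Junb* was at 43 and 16.1 CPM in these controls and at 20.4 and 12.3 CPM under SCFA, and *Maff* at 4.91 and 0.996 CPM against 1.21 and 0.974 CPM. Control replicate 3 was the low library in each of these genes, and also in *Fosb* (3.25 CPM against 9.56) and *Fosl2* (6.04 CPM against 15.1).
By edgeR 0% of genes were called at 7 dpl (1861 had an unadjusted p under 0.05, 3 members among them), and DESeq2 called 27 genes lower (0.164%) and 199 higher, and no member, giving *Fosb*, *Maff* and *Fosl1* no adjusted p. On the scale of that fit *Ier2*, *Fosl2* and *Fosb* had SCFA below control with no overlap, 3 of 10 members against 21.8% of all genes, although for *Ier2* the nearest values, 33.0 and 33.1 CPM over all 43 libraries, overlap. Without control replicate 1, which left 1 control library, the log2 fold change of *Fos* was 0.31. The first-run fit, which adds SCFA replicate 2 and the control library with Y-linked transcripts (*Fos* at 77.1 CPM), called *Fos*, *Fosb*, *Fosl2*, *Junb* and *Maff* lower, against 0.471% of all genes. With the run as a covariate *Fosb* and *Junb* were called with that library, against 0.242% of all genes, and no member without it.

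At 14 dpl in females, the controls compared are both in the second run of columns and the 3 SCFA libraries all in the first, so these 2 factors cannot be told apart in it. *Fos* was at 21 and 101 CPM in these controls and at 32.9, 35.5 and 33.3 CPM under SCFA, a log2 fold change of -0.83 (SE 0.476, adjusted p = 0.275). The value of 101 CPM, in control replicate 3, was the highest of the 43 libraries, as was that library's *Fosl2* at 30.7 CPM, and SCFA values lay between the 2 controls. Without control replicate 3, which left 1 control library at 21 CPM, the log2 fold change of *Fos* was 0.70.
Although 9.29% of 16742 genes were called lower and 8.4% higher, no member was called by edgeR or DESeq2, and none had an unadjusted p under 0.05 by edgeR. *Fosl1* was the 1 member whose groups did not overlap, with 6.00 and 5.63 CPM in controls and 1.69, 4.24 and 4.65 CPM under SCFA (-0.70, SE 0.366, adjusted p = 0.232), against 25% of all genes. With the remaining control and SCFA libraries added and the run as a covariate, *Fos* had a log2 fold change of -1.14 (SE 0.332), *Fosb* of -0.95 (SE 0.267) and *Maff* of -1.0 (SE 0.404), and 0% of genes were called (adjusted p = 1 for these).

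**Figure D2:**
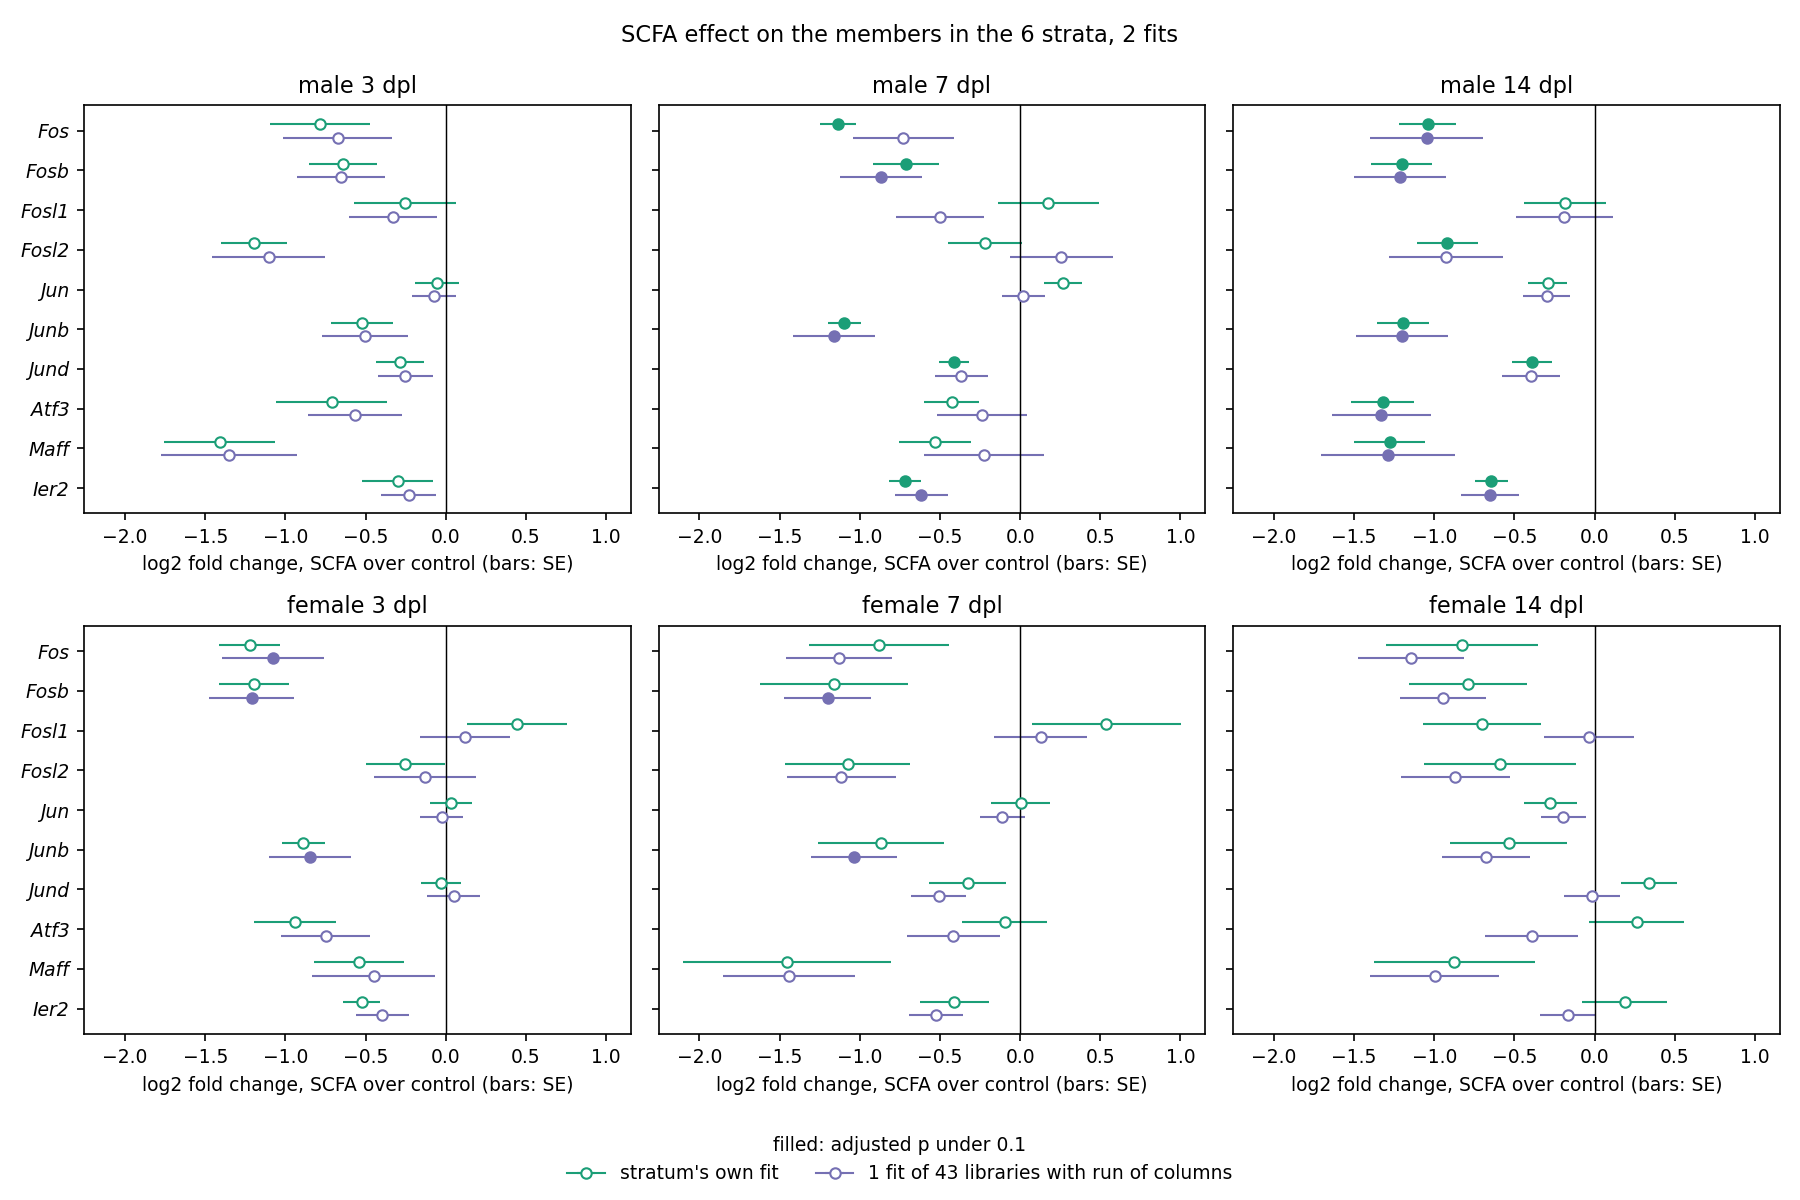
Log2 fold change of the 10 members, SCFA over control (horizontal axes, bars are SE), in the 6 strata, from each stratum's own fit (green) and from 1 fit of the 43 libraries with the run of columns as a covariate (violet). Filled symbols had an adjusted p under 0.1 (edgeR). Fosb and Junb lie left of 0 in every panel in both fits, while Jun and Fosl1 lie on both sides.

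Averaged over the 6 strata in the fit of all 43 libraries with the run of columns, 8 of 10 members were lower under SCFA, the same 8 as in males at 14 dpl. *Fosb* had a log2 fold change of -1.01 (SE 0.112, adjusted p = 2.11e-07, edgeR), *Fos* of -0.97 (SE 0.137, adjusted p = 4.93e-06), *Maff* of -0.96 (SE 0.164, adjusted p = 5.02e-05) and *Junb* of -0.90 (SE 0.110, adjusted p = 7.92e-07). *Fosl2* (-0.65, SE 0.137), *Atf3* (-0.62, SE 0.120), *Ier2* (-0.43, SE 0.0703) and *Jund* (-0.25, SE 0.0704) followed, while *Jun* (-0.11, SE 0.0566, adjusted p = 0.132) and *Fosl1* (-0.14, SE 0.115, adjusted p = 0.412) were not called. The mean difference also called 17% of all 18197 genes lower, with an all-gene median of 0.00 against -0.63 for the members. Within the first run, 16 SCFA and 15 control libraries, the same 8 genes were called, with *Fos* at -1.06 (SE 0.147) and *Fosb* at -1.16 (SE 0.132), against 13.7% of all genes.

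*Jun* and *Fosl1* stood apart from the other members. *Jun*, the central partner in AP-1 dimers, ran from 35.9 to 64.2 CPM in the 19 controls (median 47.8) and from 34.1 to 58.5 CPM in the 24 SCFA libraries (median 44.1). In the second run of columns 6 of 8 SCFA libraries lay below all 4 controls (medians 47.1 and 51.8 CPM), and in the first 1 of 16 lay below all 15. Its 6 log2 fold changes lay between -0.29 and 0.27. *Fosl1*, an AP-1 gene linked to migration and invasion, ran from 1.40 to 6.00 CPM in controls (median 2.65) and from 1.64 to 4.65 CPM under SCFA (median 2.65). Its control values were apart by run of columns, at 1.40 to 4.13 CPM in the first and 4.47 to 6.00 CPM in the second, whereas its SCFA values overlapped between the runs (1.64 to 4.65 and 3.06 to 4.50 CPM).
In the fit with run, *Fosl1* was higher in the second run by a log2 fold change of 0.72 (SE 0.146, adjusted p = 0.000124) and *Jun* by 0.17 (SE 0.0720, adjusted p = 0.0566). *Atf3* (-0.41, SE 0.153), *Ier2* (-0.27, SE 0.0902) and *Jund* (-0.18, SE 0.0893) were lower in the second run. Of all genes 25.7% were called higher and 26.4% lower in it. *Fos* (-0.35, SE 0.175, adjusted p = 0.105), *Fosb* (0.07), *Junb* (-0.06), *Fosl2* (-0.36) and *Maff* (-0.17) were not called for the run.

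**Figure D3:**
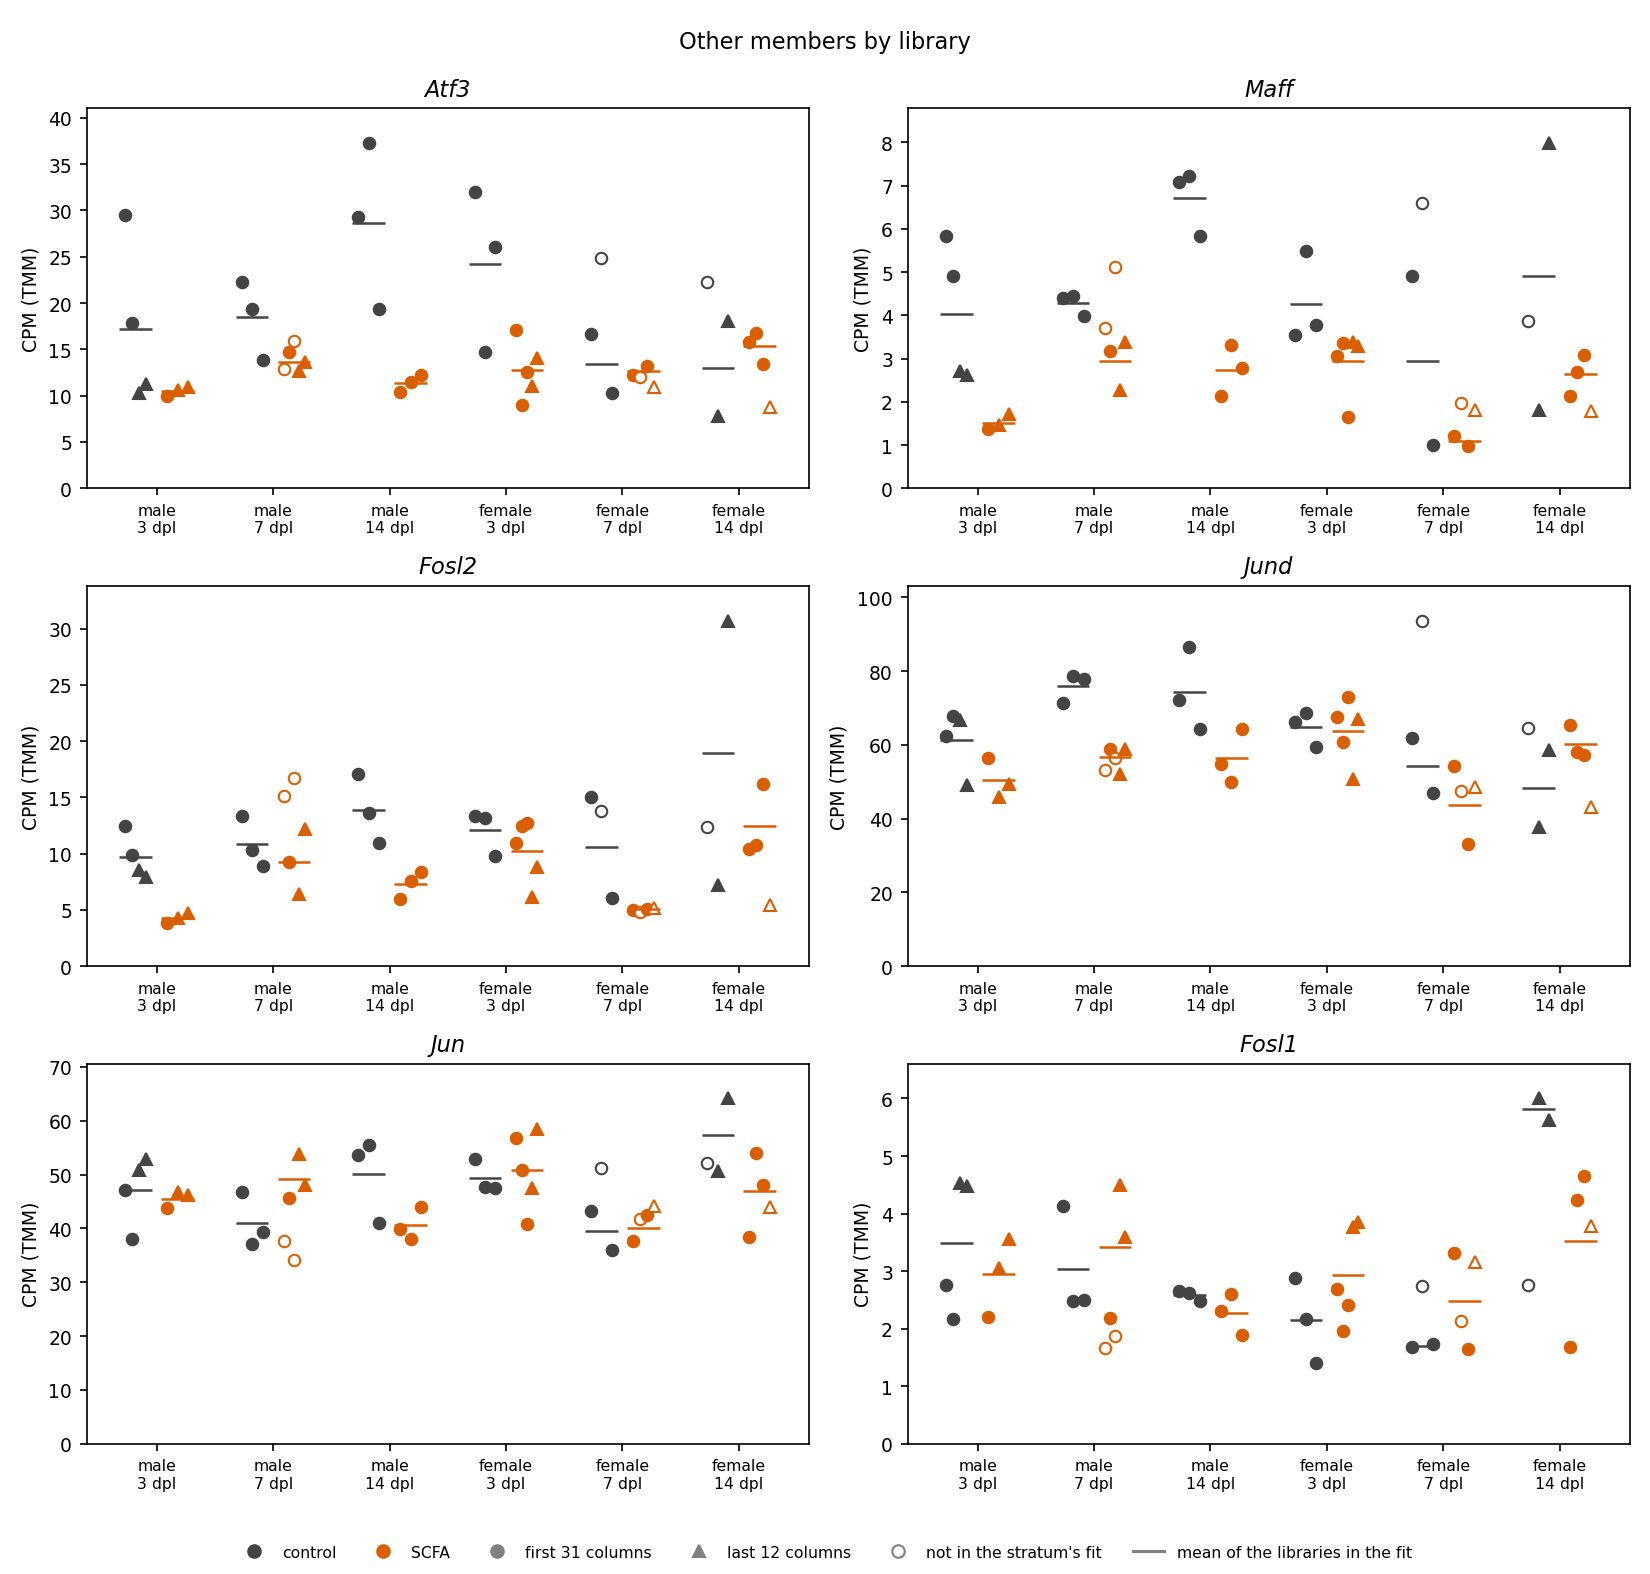
Expression of Atf3, Maff, Fosl2, Jund, Jun and Fosl1 in CPM (vertical axes, from 0, TMM scale) in the 43 libraries by sex and time after the laser (horizontal axes), drawn as in the plot of Fos. Atf3 and Maff separate control and SCFA in males at 14 dpl, Jun does not separate them, and the triangles of Fosl1 lie high in most groups.

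The sexes were compared in their response to SCFA by an interaction term. At 14 dpl, *Atf3* (difference of log2 fold changes, male minus female, -1.59, SE 0.384, adjusted p = 0.0572), *Jund* (-0.73, SE 0.229, adjusted p = 0.0828) and *Ier2* (-0.84, SE 0.282, adjusted p = 0.0990) had a lower SCFA to control ratio in males. These were 3 of 10 members, against 5.4% of all genes called in that direction. The female side of this test is the comparison in which run and treatment coincide: *Atf3* was at 7.82 and 18.1 CPM in the female controls compared and at 15.8, 16.8 and 13.4 CPM under SCFA. In the fit with the run of columns 0% of genes were called, and *Atf3* was at -0.94 (SE 0.425, adjusted p = 0.487), *Ier2* at -0.48 (adjusted p = 0.512) and *Jund* at -0.38 (adjusted p = 0.602). At 3 and 7 dpl 0% of genes were called for the difference between the sexes by edgeR, with 1 and 0 members at an unadjusted p under 0.05. DESeq2 called no member at 3 dpl and gave the members no adjusted p at 7 dpl.

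Among control retinas, *Jund* at 7 dpl was the 1 member that differed between the sexes. It was at 78.8 and 77.8 CPM in the 2 male and 61.8 and 46.9 CPM in the 2 female libraries compared, a log2 fold change of 0.52 (SE 0.132, adjusted p = 0.0715), against 3.13% of all genes called higher in males. With all control libraries of that day, which include male replicate 1 at 71.4 CPM and the library labelled female with Y-linked transcripts at 93.7 CPM, *Jund* was not called. Without that library but with male replicate 1, it was not called either. No member was called between the sexes at 3 dpl (2 with an unadjusted p under 0.05) or 14 dpl (2 by edgeR and 4 by DESeq2, which also called none), where edgeR called 0.0303% and 0.0251% of genes higher and 0.0121% and 0.0125% lower in males. *Fos* at 3 dpl was lower in each of the 4 male controls than in any of the 3 female ones, as were 5.14% of all genes, with a log2 fold change of -0.86 (SE 0.270, adjusted p = 0.610). Of these male controls 2 are in the second run of columns and all the female ones in the first, and within the first run it was -0.45 (SE 0.338, adjusted p = 0.959). Over time, no member was called between control retinas at 3 and 7 dpl or at 7 and 14 dpl in either sex by edgeR. The members with an unadjusted p under 0.05 numbered 4 and 3 in males (997 of 16592 and 2502 of 16153 genes) and 0 and 1 in females (295 of 16228 and 1301 of 16060 genes). The 4 in males became 0 within the first run of columns, and the female comparisons include the library with Y-linked transcripts, without which no member was called either. DESeq2 called only *Maff*, higher at 14 than at 7 dpl in males (log2 fold change 0.64), against 1.94% of all genes. Of all genes, edgeR called 0.805% higher and 0.761% lower in that male comparison and 0% in the other 3.

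Across the 43 libraries, *Fos* went with most of the family on the log2(CPM + 1) scale. Pearson's r with *Fos* was 0.83 for *Junb*, 0.82 for *Maff*, 0.80 for *Fosb* and *Ier2*, 0.77 for *Atf3*, 0.72 for *Fosl2* and 0.62 for *Jund*, against 0.26 for *Jun* and -0.17 for *Fosl1*. Among the 28 pairs of the 8 members other than *Jun* and *Fosl1*, r ran from 0.46 to 0.83. *Fosl1* and *Jun* had an r of 0.57 with each other. The libraries share treatment groups and runs of columns, so these values describe the table and are given without a test. Among 14925 other genes with a mean of at least 1 CPM, the highest r with *Fos* over the 43 libraries was that of *Egr4* (0.89), then *Dusp1* (0.89), *Egr1* (0.89), *Nr4a1* (0.87) and *Klf2* (0.86).

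**Figure D4:**
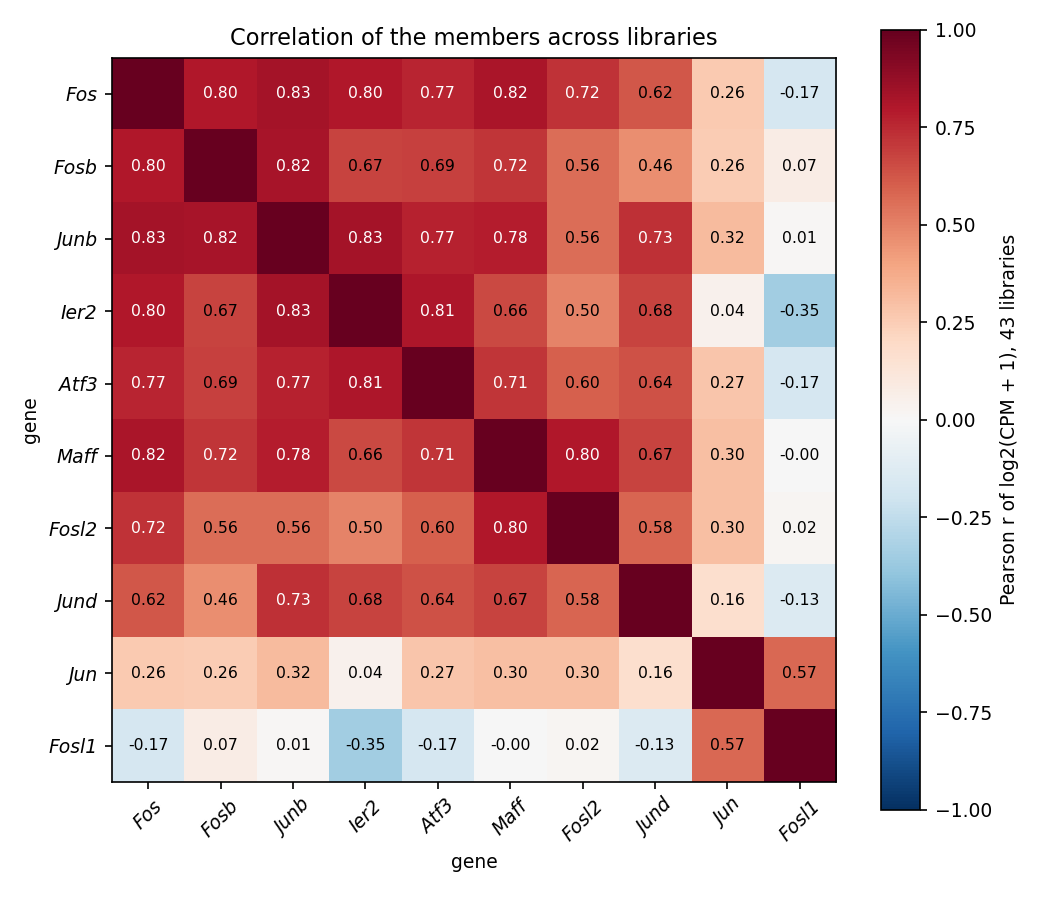
Pearson's r of log2(CPM + 1) between the 10 members over the 43 libraries, each cell 1 pair of genes (both axes), with colour from -1 (blue) to 1 (red). The 8 members other than Jun and Fosl1 have r between 0.46 and 0.83 with each other, and Fosl1 has r near or below 0 with these 8.

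Other immediate early genes, a list of 19 of which 18 were tested in males, were described beside the members, against the same shares of all genes as above. In males at 7 dpl, 8 were called lower and none higher, with a list median of -0.48, and those with the smallest adjusted p were the orphan nuclear receptor gene *Nr4a1* (log2 fold change -1.46, SE 0.112, adjusted p = 0.000770) and the zinc finger genes *Egr1* (-2.42, SE 0.291) and *Egr4* (-2.18, SE 0.261). In males at 14 dpl, 10 were called lower and none higher (median -0.63), led by the MAP kinase phosphatase gene *Dusp1* (-1.07, SE 0.127), *Ccn1* (-2.52, SE 0.303) and *Klf4* (-2.03, SE 0.316). In females, *Egr1* (-1.87, SE 0.158, adjusted p = 0.00502) and *Nr4a1* (-1.56, SE 0.165, adjusted p = 0.0200) were the 2 genes called lower by edgeR at 3 dpl in the fit of all libraries, where DESeq2 called 61 genes lower. At 14 dpl in females *Ier3* was called higher and *Nr4a1* and *Egr1* lower, and at 7 dpl in females and 3 dpl in males none was called by edgeR. In the fit of all 43 libraries with the run of columns, 6 of 19 were lower and 2 higher in males at 7 dpl (median -0.36). Of all genes 9.1% and 13.1% were called there. That fit called 6 lower in males at 14 dpl (3.86% of all genes) and 4 in females at 3 dpl (3.33%). It called 3 lower in females at 7 dpl (0.242%), with the library with Y-linked transcripts, and none in the other strata.

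Of 16 kinases and factors upstream of AP-1, some were called in each direction. In males at 7 dpl, 3 were called higher, against 10.7% of all genes, and none lower: the JNK kinase gene *Map2k7* (log2 fold change 0.42, SE 0.101), the SRF cofactor gene *Mrtfb* (0.47, SE 0.117) and the JNK gene *Mapk8* (0.47, SE 0.120). At 14 dpl in males 5 were higher and 2 lower, against 12% and 12.6% of all genes, with *Creb1* at 0.39 (SE 0.0975), *Map2k7* at 0.40 (SE 0.111) and *Mapk10* at -0.45 (SE 0.122). In females at 14 dpl, where run of columns and treatment coincide, 4 were lower, against 9.29% of all genes. Among them were *Elk1* (-0.51) and *Mapk10* (-0.54), and none was called in the other strata by their own fits. With the run as a covariate, 4 were higher and 3 lower in males at 7 dpl, against 13.1% and 9.1% of all genes. That fit called 1 higher in males at 14 dpl (3.28% of all genes) and 2 lower in females at 3 dpl (3.33%). In females at 14 dpl it called 0% of genes. The list medians lay between -0.06 and 0.10 in the strata's own fits and between -0.10 and 0.06 with the run as a covariate.
Of 13 bZIP partners and relatives, 10 were tested. In males 1 was called higher and 2 lower at 7 dpl, against 10.7% and 8.47% of all genes. At 14 dpl in males 1 was higher and 3 lower, against 12% and 12.6%. *Atf2*, a CRE-binding partner of Jun, was higher under SCFA in males at 7 dpl (0.68, SE 0.133) and 14 dpl (0.46, SE 0.103), and *Atf4* was lower at both (-0.36 and -0.43). The small Maf genes *Mafg* at 7 dpl (-0.49, SE 0.0990) and *Mafk* at 14 dpl (-0.94, SE 0.185) were lower in males, and *Mafk* (-0.71, SE 0.221) and *Atf7* (-0.43) in females at 14 dpl. These were 2 of 10 in females at 14 dpl, against 9.29% of all genes, and the fit with the run of columns called none there. In males that fit called 2 higher and 1 lower at 7 dpl, against 13.1% and 9.1% of all genes. It called 1 higher and 1 lower in males at 14 dpl (3.28% and 3.86%) and in females at 3 dpl (4.78% and 3.33%).

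Of 15 genes known as AP-1 targets, 9 to 12 were tested per stratum. In males at 7 dpl 2 of 9 were called higher and none lower, against 10.7% and 8.47% of all genes. In males at 14 dpl 1 of 10 was called higher and 3 lower, against 12% and 12.6%. In males at 7 dpl the cyclin gene *Ccnd1* (0.59, SE 0.156, adjusted p = 0.0402) and *Vegfa*, the growth factor of neovascularization (0.28, SE 0.0980, adjusted p = 0.0927), were higher under SCFA. In males at 14 dpl *Vegfa* was again higher (0.40, SE 0.130), and the matrix metalloproteinase gene *Mmp9* (-0.87, SE 0.201) and *Spp1* (-0.43, SE 0.14) were lower. *Mmp9* was also lower in females at 14 dpl (-0.62, SE 0.137), 1 of 12 tested, against 9.29% of all genes. In that stratum run of columns and treatment coincide. No target was called in females at 3 or 7 dpl or in males at 3 dpl. With the run as a covariate 13 were tested, and 1 was higher in males at 7 dpl (13.1% of all genes). In that fit 1 was lower in males at 14 dpl (3.86%), 2 were higher in females at 3 dpl (4.78%) and none was called in females at 14 dpl.

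Retinas are mixtures of cell types, and in bulk RNA fewer cells of a type and less RNA per cell cannot be told apart. The markers fit retina: rod markers summed to at least 61597 CPM in the libraries compared, and no marker of any list was at 0 counts throughout the 43 libraries. In males, several marker lists held called genes, against 8.47% of all genes called lower and 10.7% higher at 7 dpl and 12.6% lower at 14 dpl. Microglia and macrophage markers had 2 of 8 genes called lower at 7 dpl (sum 63.2 to 90.3 CPM in controls and 38 to 60.2 CPM under SCFA) and 3 of 8 at 14 dpl (56.6 to 59.5 and 29.1 to 46.5 CPM). Pigment epithelium and choroid markers had 4 of 5 tested genes called lower at 7 dpl (318 to 390 and 109 to 248 CPM) and 2 of 6 at 14 dpl (168 to 323 and 76.4 to 143 CPM). With the run of columns as a covariate, 2 of these 6 were called lower at 7 dpl, against 9.1% of all genes. Their median log2 fold change at 7 dpl was 0.016 in that fit and -0.86 in the plain fit. For microglia and macrophage markers 2 of 8 were lower in it, with medians of -0.28 and -0.73. In males 3 of 5 Müller glia markers were higher at 7 dpl, and 3 of 4 retinal ganglion cell markers and 3 of 4 lens markers were lower at 14 dpl. With the run as a covariate, 1 of 4 retinal ganglion cell and 0 of 4 lens markers were lower at 14 dpl, against 3.86% of all genes. In that fit 1 of 8 microglia and macrophage and 1 of 6 pigment epithelium and choroid markers were lower at 14 dpl. It called 3 of 5 Müller glia markers higher at 7 dpl, against 13.1% of all genes. In females at 3 dpl, microglia markers summed to 51.9 to 76.7 CPM in controls and 53.5 to 78.6 CPM under SCFA, and pigment epithelium and choroid markers to 146 to 272 and 106 to 1134 CPM. No marker was called there by the stratum's own fit. With the run as a covariate, 3 of 5 Müller glia, 4 of 4 lens, 3 of 3 muscle and 2 of 3 fibroblast markers were higher, against 4.78% of all genes. So were 2 of 6 pigment epithelium and choroid and 1 of 4 myelin markers, and no microglia marker was called. Microglia markers ran from 49.3 to 86.8 CPM in controls and 34.1 to 53.2 CPM under SCFA in males at 3 dpl. In females they ran from 50.02 to 57.5 and 34.0 to 39.8 CPM at 7 dpl, without overlap, and from 41.3 to 48.5 and 41.5 to 51.0 CPM at 14 dpl. At 7 dpl in females 21.8% of all genes had SCFA below control with no overlap. No microglia marker was called in that stratum, with or without the run as a covariate. The part of these markers in the differences of *Fos* and its relatives was not tested.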

How the data were processed

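Bulk RNA-seq of retina pools from 43 libraries was analysed, grouped by sex, treatment and day from the sample titles. A separate treatment label reads control for all 43 libraries, against the titles, and was not used. The deposited values are raw read counts per Ensembl gene; per the labels the authors used mm10 and DESeq2, and the aligner, the counter and its strand setting are not given in the sources used here. Of 54532 gene rows, 54495 matched GENCODE M21 (GRCm38), which gave symbols, exon lengths and positions. The members and all gene lists were chosen with earlier results of these data known. Results for some listed genes that are not members are not reported here.

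Genes were filtered with filterByExpr, scaled by TMM and tested in edgeR (4.0.16, R 4.3.3) by its quasi-likelihood F test over all genes passing the filter, with Benjamini-Hochberg adjustment; a gene was called at an adjusted p under 0.1, and SEs were taken from the fold change and its F statistic. The scripts were tested on simulated counts. Members were named by membership, other genes as the called genes of a list with the smallest adjusted p, and promoters as the single-start members that were called and hold TGACG. CPM was scaled by TMM over all libraries. Library totals (median 17683615) leave the lowest member at 15 counts or more. Alternatives were DESeq2 1.42.0, RLE scaling, no filter, stricter calls, single runs of columns, 1 fit of all libraries with and without the run, replicate blocks, all libraries of the groups, and leaving out each library. Alternatives without the library with Y-linked transcripts were chosen after seeing the data. No 2 libraries of the same group agreed within sampling noise, and libraries of different groups were not compared in this way.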

Additional observations from a re-analysis of the deposited data

Results flagged for a closer look

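Single libraries stood apart from the rest of their group in 2 of 50 sets of 4 or 5 libraries by Dixon's test, where chance flags about 1 in 20. *Junb* was at 15.5 CPM in male SCFA 7 dpl replicate 3, whose group otherwise ran from 19.6 to 21.1 CPM. That library is outside the study's comparison and had the highest mitochondrial share, 16.6%. *Maff* was at 1.65 CPM in female SCFA 3 dpl replicate 3, and the other 4 libraries of the group ran from 3.07 to 3.39 CPM.

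The SCFA response differed between the sexes at 14 dpl for 3 members by the interaction term (edgeR, male minus female log2 fold change): *Jund* at -0.73 (adjusted p = 0.0828), *Ier2* at -0.84 (adjusted p = 0.0990) and *Atf3* at -1.59 (adjusted p = 0.0572). In the female comparison the run of columns and the treatment cannot be told apart, and with the run as a covariate none of the 3 was called.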

How the results depend on the processing

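The numbers below are members called of 10, and percentages in brackets are the share of all genes called in the same direction. DESeq2 called 2 in males at 3 dpl (0.114%), 5 in females at 3 dpl (0.374%) and 1 between male controls at 7 and 14 dpl (1.94%). With an added absolute log2 fold change over 1, 2 remained in males at 7 dpl (0.999%) and 5 in males at 14 dpl (0.754%). By that rule 1 remained in the mean of the 6 strata (22 of 18197 genes), 1 in the sex difference in response at 14 dpl (156 of 17214 genes) and 0 between control sexes at 7 dpl. At an adjusted p under 0.05 the last 2 of these gave 0 and 0, as with all libraries of the groups (0 and 0), and the sexes at 7 dpl also gave 0 with all libraries but the one with Y-linked transcripts. Without a filter on low counts, females had 1 at 3 dpl (0.0101%), 5 at 7 dpl (0.589%) and 2 at 14 dpl (6.09%). In that setting the control sexes had 2 at 7 dpl (3.29%) and 2 at 14 dpl (0.406%), and male controls 2 between 7 and 14 dpl (1.54%). In the first run of columns alone, males at 7 dpl had 3 (7.88%), and females 5 at 3 dpl (8.71%) and 5 at 7 dpl (0.471%). The sex difference in response at 14 dpl and the control sexes at 7 dpl had 0 there. In 1 fit of all 43 libraries, males had 3 at 7 dpl (3.70%) and 3 at 14 dpl (0.588%), and females at 3 dpl 1 (0.159%). The sex difference in response at 14 dpl had 0 in it, and the control sexes 0 at 7 and 1 at 14 dpl (0.769%). With the run of columns in that fit, males at 7 dpl had 3 (9.1%), and females 3 at 3 dpl (3.33%) and 2 at 7 dpl (0.242%). Without the library with Y-linked transcripts, females at 3 dpl had 4 (5.09%). The sex difference at 14 dpl and the control sexes at 7 dpl had 0 with the run. The causes of these differences were not tested.

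Leaving out 1 library at a time gave 3 to 7 in males at 7 dpl (3 without control replicate 2 or SCFA replicate 4), 7 to 9 in males at 14 dpl, 0 in males at 3 dpl, 0 to 2 in females at 3 dpl (2 without SCFA replicate 2) and 8 to 9 in the mean of the 6 strata. Females at 7 dpl had 0 to 6 (6 without SCFA replicate 1, 3 without SCFA replicate 3 and 4 without control replicate 3), and at 14 dpl 0 to 4 (4 higher without control replicate 3, and 1 lower without control replicate 2). The sex difference in response at 14 dpl had 0 to 8 (0 without male SCFA replicate 3, male control replicate 2 or female control replicate 2, 8 without female control replicate 3, and 1 without male SCFA replicate 1 or 2, female SCFA replicate 1 or 2, or male control replicate 1). The control sexes had 0 to 8 at 7 dpl (0 without male replicate 3, and without female replicate 1 or 3 8 and 3) and 0 to 4 at 14 dpl (4 without female replicate 1). Between 7 and 14 dpl male controls had 0 to 3 (3 without 14 dpl replicate 3) and female controls 0 to 1 (1 without 14 dpl replicate 1), and every other set of controls or responses had 0. Where 1 library was left in a group, it was assumed to vary like the other groups. The share of all genes called in each of these refits is not given here. The counts of members are thus not set against all genes, and a high count may go with many calls among all genes. Directions turned only in females (log2 fold changes). At 7 dpl, between leaving out control replicates 3 and 1, *Fos* ran from -1.52 to 0.31, *Junb* from -1.40 to 0.0028 and *Maff* from -2.16 to 0.12. At 14 dpl, between leaving out control replicates 2 and 3, *Fos* ran from -1.56 to 0.70 and *Fosb* from -1.34 to 0.076.

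Same-numbered libraries were treated as unpaired. The correlations of their deviations from the group means ran from -0.41 to 0.37, and in females at 3 dpl all were positive (0.04 to 0.17). In groups this small the deviations depend on each other, so these correlations cannot exclude pairing. The replicate block gave 5 members in females at 3 dpl, against 5.52% of all genes called lower. It gave 1 in the sex difference in response at 14 dpl (2.81% lower) and 1 between male controls at 7 and 14 dpl (0.669% higher). It moved no other count of calls by more than 1.5 times. It could not be fitted for males at 7 dpl or the control sexes at 7 dpl, which share 1 number. Of 370 values under the alternatives that leave out no replicate, for the 47 member-by-comparison results that were followed, 282 kept direction and side of the threshold, 36 lost the call, 52 gained one and none turned its direction. Signs of other, uncalled members did turn: in females at 14 dpl 3 members were positive and with the run of columns 0, and for the sex difference in response at 7 dpl 4 were positive and in the first run 7. Counts under 30 in some libraries limit what can be seen of *Maff*, *Fosl1* and *Fosb*.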
